A study of Mus musculus with 12 samples.

Results

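The BCL2 family decides whether the mitochondrial route of apoptosis is taken, and 10 of its genes were examined here: the BH3-only genes Bbc3, Bid, Bik, Pmaip1 and Bcl2l11, the effector genes Bax and Bak1, and the pro-survival genes Bcl2, Bcl2l1 and Mcl1. A gene was followed where the platform annotation gave it a probe set that names that gene alone. This held for 8 of the 10 genes, each with 1 probe set, out of 21408 genes measured in this way. Bax and Bcl2l11 were not analysed here.

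Proteins of the family share BCL2 homology (BH) domains and act at the outer mitochondrial membrane. BAX and BAK permeabilise that membrane and so release cytochrome c, pro-survival members hold them in check, and BH3-only proteins, which respond to damage, cytokine loss or ER stress, neutralise the pro-survival members or activate BAX and BAK directly. In the intestine, PUMA (the product of Bbc3) is known for its part in the death of crypt cells after irradiation. Many members are also controlled by protein cleavage, phosphorylation or degradation, which an RNA measurement does not see.

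The small intestine was taken on day 14 after allogeneic haematopoietic cell transplantation from wild-type BALB/c mice that had received total body irradiation and then bone marrow and T cells of C57BL/6N donors. Donor T cells then attack tissues of the recipient, which models acute graft-versus-host disease. In 6 mice tauroursodeoxycholic acid (TUDCA), a bile acid also used as a chemical chaperone, had been injected daily into the peritoneum at 200 mg/kg, and 6 mice had been given vehicle at an equal volume of 200 µl. Every animal was transplanted, so the comparison holds no healthy intestine, and the labels do not give the age of the mice. RNA was hybridised to Affymetrix mouse gene arrays, 1 array per sample.

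The labels number the samples in 2 separate ranges of unstated meaning. The low range held 2 TUDCA and 4 vehicle arrays, the high range 4 TUDCA and 2 vehicle arrays, and each difference was estimated within ranges. Array medians lay between 5.90 and 5.95 log2 units. One field of the labels names CXCL12-abundant reticular cells where all others name small intestine. The tissue was checked against epithelial markers, without detection calls, which the values do not hold. The mean of 7 epithelial genes was at least 11.33 log2 units on TUDCA and 11.43 on vehicle arrays. That of 7 reticular cell genes was at most 6.86 and 6.80, and whether such cells were present was not tested. Enterocyte genes Fabp1 (5.15 under TUDCA, 5.53 under vehicle) and Lct (5.17 and 5.34) lay below 5.93, the median probe set mean. Of the epithelial genes, Krt20, Cdx1 and Cdh17 averaged higher under TUDCA, and Vil1, Fabp2, Cdx2 and Epcam lower. Fabp2, an enterocyte fatty acid-binding protein, averaged 13.11 ± 0.09 log2 units under TUDCA and 13.27 ± 0.16 under vehicle (SD, n = 6 each), and Vil1, the microvillus protein villin, 12.12 ± 0.05 under TUDCA and 12.23 ± 0.07 under vehicle (SD, n = 6 each).

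The title of the series names regulation of intestinal apoptosis, and the comparison of TUDCA with vehicle asks here whether transcripts of the BCL2 family differed. None of the 8 measured members passed an adjusted p of 0.05 in limma, 0 higher and 0 lower, where 2.52% of all 23991 probe sets did. Pmaip1 alone was under an adjusted p of 0.1, where 4.04% of all probe sets were, and alone under an unadjusted p of 0.05, where 14.1% were. A total of 3 members had a positive and 5 a negative estimate. The median log2 difference of the members was −0.06, against 0.01 over all probe sets, and the median absolute difference was 0.10 log2 units, against 0.09 over all probe sets. No member had groups that did not overlap, as 1.98% of all probe sets did. In whole intestine a lower value can mean fewer cells of a type or less RNA per cell, which cannot be told apart.

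**Figure D1:**
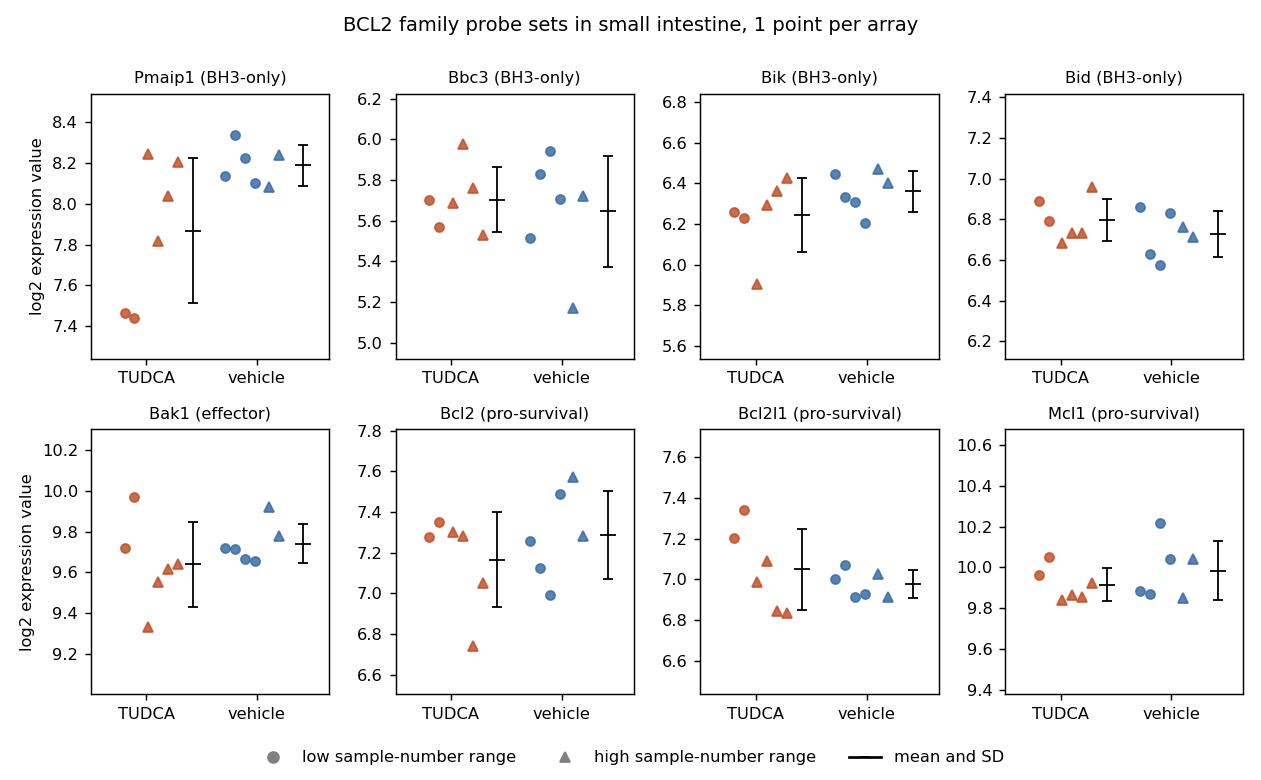
Log2 expression value (y axis, 1.3 log2 units high in every panel) of the 8 measured members, with TUDCA arrays left of vehicle arrays. Circles are arrays of the low sample-number range and triangles those of the high range, and bars give the mean and SD of each group (n = 6). Pmaip1 sits at 7.46 and 7.44 in the TUDCA arrays of the low range, and the groups overlap in all 8 panels.

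Among the BH3-only genes, Pmaip1, which encodes NOXA, an antagonist of MCL1 that p53 can induce, had the largest difference. The 6 TUDCA arrays read 7.46, 7.44, 8.24, 7.82, 8.04 and 8.21 log2 units, against 8.14, 8.34, 8.23, 8.10, 8.08 and 8.24 in the 6 vehicle arrays (replicates 1 to 6 of each group). TUDCA replicates 1 and 2, the 2 TUDCA arrays of the low range, stood below every other array, TUDCA replicates 4 and 5 lay below the lowest vehicle array by less, and TUDCA replicates 3 and 6 lay within the vehicle range. Means were 7.87 ± 0.36 under TUDCA and 8.19 ± 0.10 under vehicle (SD, n = 6 each). The log2 difference was −0.42 ± 0.12 (SE, 95% interval −0.67 to −0.16), a fold of 0.748, and it did not pass the test (adjusted p = 0.0876 in limma). A two-sided exact permutation of the labels within the number ranges gave an unadjusted p = 0.0222, where the smallest of the 225 relabelings is 0.00444. Pmaip1 had the smallest p of the 8 members, which these p-values do not take into account.

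The Pmaip1 difference lay mostly in the low range. On the arrays of the low range alone it was −0.75 (adjusted p = 0.00528 in limma), and on those of the high range alone −0.09 (adjusted p = 0.877). In the low range 1.38% of all probe sets were called lower. The difference in the high range minus that in the low range was 0.66 ± 0.17 log2 units (SE). Tested as an interaction, a test added after the data were seen, it did not pass (adjusted p = 0.516 in limma). Of the 23991 probe sets 0 were called, and 1843 or 7.68% had an unadjusted p under 0.05. Among the members, Pmaip1 (0.00139), Bak1 (0.00489) and Bcl2l1 (0.0394) had an unadjusted interaction p under 0.05 in limma. The other measured members did not. Without TUDCA replicate 1 the Pmaip1 difference was −0.34 (adjusted p = 0.310), and without TUDCA replicate 2 it was −0.33 (adjusted p = 0.283). Pmaip1 passed on omission of TUDCA replicate 3 (−0.46, adjusted p = 0.0454), as it did on omission of vehicle replicate 5 (−0.53, adjusted p = 0.0275).

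**Figure D2:**
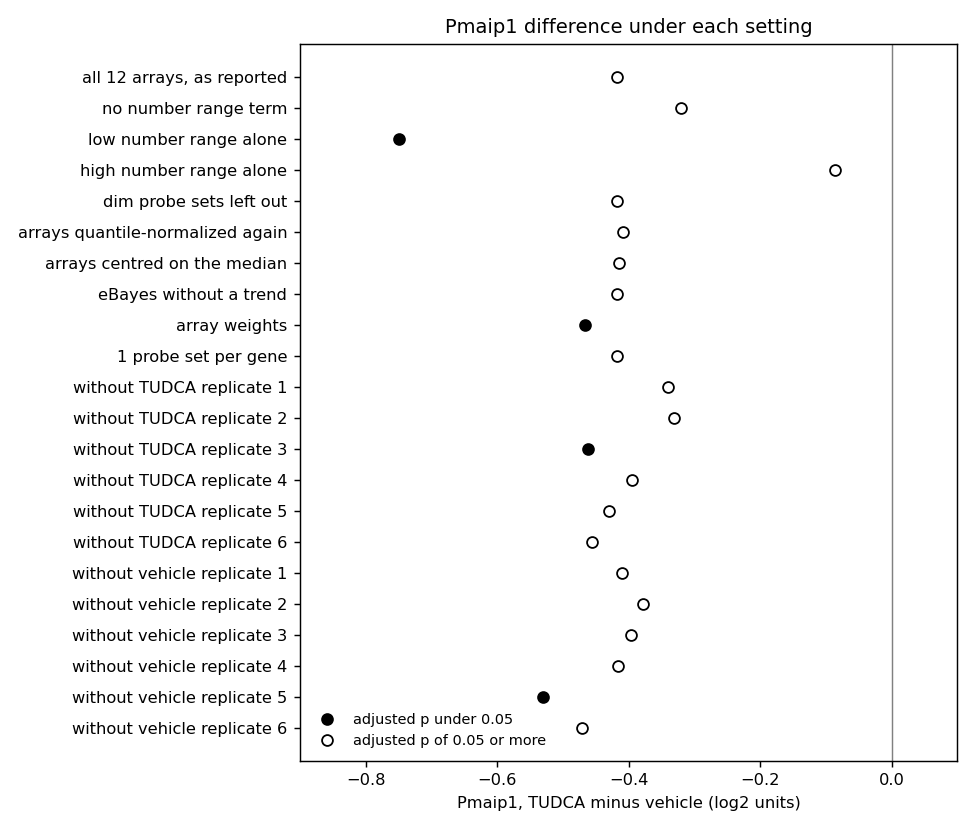
Log2 difference of Pmaip1, TUDCA minus vehicle (x axis), under the settings of the limma fit (rows), that with a replicate block left out. Filled points have an adjusted p under 0.05. All points lie below 0, from −0.75 in the low range alone to −0.09 in the high range alone.

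T and NK cell markers were also lower on these arrays. Of 11 measured markers 5 fell and 0 rose, and their mean log2 value ran from 6.07 to 7.33 over the TUDCA arrays and from 7.18 to 7.90 over the vehicle arrays. Over all probe sets 1.52% fell and 1% rose. The marker mean was 6.85, 6.07, 7.08, 7.33, 7.26 and 6.88 in TUDCA replicates 1 to 6. Pmaip1 in the same replicates was 7.46, 7.44, 8.24, 7.82, 8.04 and 8.21. Replicates 1 and 2 belong to the low number range, the others to the high one. Of 12 absorptive enterocyte markers 3 fell and 0 rose, against the same 1.52% and 1% of all probe sets (mean log2 value from 9.999 to 10.34 under TUDCA and from 10.27 to 10.55 under vehicle). Of 7 goblet cell markers 2 rose, where 1% of all probe sets did, and 0 fell, where 1.52% did, with means from 11.26 to 11.65 under TUDCA and from 10.84 to 11.37 under vehicle. The marker lists were chosen with earlier results of these data known, so these counts are descriptions. The part of these cell types in the values of the members was not tested.

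Bbc3, encoding PUMA, ranged from 5.53 to 5.98 under TUDCA (median 5.69) and from 5.17 to 5.94 under vehicle (median 5.71). The lowest value belonged to vehicle replicate 5, and all TUDCA arrays lay within the vehicle range or just above it. The log2 difference was 0.09 ± 0.13 (SE, 95% interval −0.18 to 0.36, adjusted p = 0.812 in limma), so folds from 0.884 to 1.28 remain within the interval. Without vehicle replicate 5 the difference was −0.06 (adjusted p = 0.876 in limma). Means were 5.70 ± 0.16 under TUDCA and 5.65 ± 0.27 under vehicle (SD, n = 6 each). Both lay below 5.93, the median of the means of all probe sets, and the values do not show how far Bbc3 stood above background.

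Bik, a BH3-only gene whose human product resides at the endoplasmic reticulum, ranged from 5.91 to 6.43 under TUDCA (median 6.28) and from 6.20 to 6.47 under vehicle (median 6.37). All 6 TUDCA arrays were below the vehicle mean of their number range, TUDCA replicate 3 the farthest. Bik had a log2 difference of −0.13 ± 0.09 (SE, 95% interval −0.33 to 0.06, adjusted p = 0.575 in limma).

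Bid encodes the BH3-only protein that caspase-8 and granzyme B cleave into its active form, linking death receptors and cytotoxic lymphocytes to mitochondria. It ranged from 6.69 to 6.96 under TUDCA (median 6.76) and from 6.58 to 6.86 under vehicle (median 6.74). The groups overlapped almost entirely. Bid had a log2 difference of 0.08 ± 0.08 (SE, 95% interval −0.09 to 0.24, adjusted p = 0.725 in limma), 1 of 2 members whose whole interval lay within 0.25 log2 units of 0. The transcript of granzyme B, which cleaves the protein, did fall, as given below for the upstream genes.

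Bak1, encoding the effector BAK, ranged from 9.33 to 9.97 under TUDCA (median 9.63) and from 9.65 to 9.92 under vehicle (median 9.72). TUDCA arrays included both the highest value (replicate 2) and the lowest (replicate 3). Bak1 had a log2 difference of −0.08 ± 0.09 (SE, 95% interval −0.27 to 0.12, adjusted p = 0.779 in limma). On the low range alone it was 0.16 and on the high range alone −0.31.

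Of the pro-survival genes, Bcl2, the founding member of the family, ranged from 6.74 to 7.35 under TUDCA (median 7.28) and from 6.99 to 7.57 under vehicle (median 7.27). TUDCA replicate 5 was the lowest and vehicle replicate 5 the highest array. For Bcl2 the log2 difference was −0.12 ± 0.13 (SE, 95% interval −0.39 to 0.15, adjusted p = 0.746 in limma). On the low range alone it was 0.10 and on the high range alone −0.33. Bbc3, Bak1 and Bcl2 were the 3 members whose TUDCA arrays all lay on 1 side of the vehicle mean in the low range and all on the other side in the high range, as 9.4% of all probe sets did.

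Bcl2l1, whose main product is BCL-XL, ranged from 6.83 to 7.34 under TUDCA (median 7.04) and from 6.91 to 7.07 under vehicle (median 6.96). TUDCA replicates 1 and 2 were the 2 highest of the low range, and TUDCA replicates 5 and 6 the 2 lowest of all arrays. For Bcl2l1 the log2 difference was 0.13 ± 0.08 (SE, 95% interval −0.04 to 0.30, adjusted p = 0.526 in limma). On the low range alone it was 0.29 and on the high range alone −0.03. Bcl2l1 and Pmaip1 were the members whose groups did not overlap within the low range, where 22.3% of all probe sets did not. A gene-level probe set sums the spliced forms of Bcl2l1, the long pro-survival and the short pro-apoptotic one, so their balance is not seen here.

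Mcl1, encoding a short-lived pro-survival protein that NOXA binds, ranged from 9.84 to 10.05 under TUDCA (median 9.89) and from 9.85 to 10.22 under vehicle (median 9.96). All TUDCA arrays lay within or at the lower edge of the vehicle range. The log2 difference was −0.04 ± 0.07 (SE, 95% interval −0.18 to 0.11, adjusted p = 0.879 in limma), the narrowest interval of the 8 members, which holds folds from 0.880 to 1.08.

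**Figure D3:**
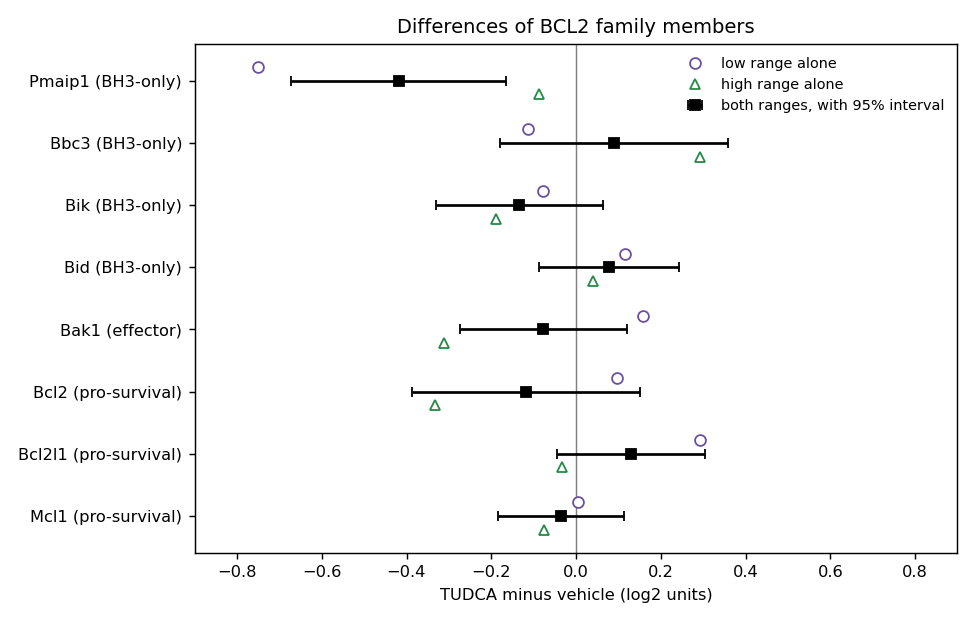
Log2 differences, TUDCA minus vehicle (x axis), of the 8 measured members. Squares with bars are the limma estimates over both number ranges with 95% intervals, circles the low range alone and triangles the high range alone. The interval of Pmaip1 runs from −0.67 to −0.16 and those of the other 7 include 0, and none passed after adjustment.

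The intervals describe the difference averaged over the 2 number ranges and do not bound that within either range. For Bak1 the estimates on the low range (0.16) and on the high range (−0.31) both lay outside its interval (−0.27 to 0.12). The same held for Pmaip1, with −0.75 on the low and −0.09 on the high range, outside −0.67 to −0.16. For 7 of the 8 members, Pmaip1 excepted, the whole 95% interval lay within 0.5 log2 units of 0, and for Bid and Mcl1 within 0.25. Members varied more between TUDCA than between vehicle arrays in 5 of 8 cases by SD, the exceptions being Bbc3, Bid and Mcl1. As a description of how the roles stood against each other, the mean of the 3 pro-survival genes minus that of the 5 others, each gene centred on its own mean, ran from −0.26 to 0.28 log2 units over TUDCA arrays (median 0.07) and from −0.12 to 0.10 over vehicle arrays (median −0.06). The highest value belonged to TUDCA replicate 2 and the lowest to TUDCA replicate 5, so TUDCA arrays held both ends. By number range, TUDCA arrays were at 0.17 and 0.28 in the low range and at 0.10, 0.03, −0.26 and −0.19 in the high range. Vehicle arrays were at −0.06, −0.12, −0.07 and 0.08 in the low range and at 0.10 and −0.06 in the high range.

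For the 3 members with the smallest p, the genes with the most similar pattern were found by Pearson correlation of log2 values over the 12 arrays, outside the lists used here. They were the highest of all genes by choice, so no p is given. For Pmaip1 they were Gbp11, a guanylate-binding protein (r = 0.91, Spearman's rho = 0.76), and Itch, a ubiquitin ligase gene (r = 0.91, rho = 0.59). Without TUDCA replicates 1 and 2 they had r = 0.53 and r = 0.42. These were the 2 arrays farthest from the median of Pmaip1. Leaving them out narrows its range, so the fall in r cannot show that the likeness rested on them. For Bcl2l1 they were Auts2 (r = 0.93, rho = 0.87) and Twnk, the mitochondrial DNA helicase gene (r = 0.93, rho = 0.88), with r = 0.74 and r = 0.76 without the same 2 arrays. For Bik they were Snora74a, a small nucleolar RNA (r = 0.94, rho = 0.91), and Ak8, an adenylate kinase gene (r = 0.92, rho = 0.81), with r = 0.90 and r = 0.64 without TUDCA replicate 3 and vehicle replicate 5.

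Of 19 further genes of the family and its relatives 15 were measured, and 0 rose and 0 fell, where 2.52% of all probe sets passed in either direction, with 1 in each direction at an unadjusted p under 0.05 in limma. Their median log2 difference was 0.02, against 0.01 over all probe sets. Bnip3, a mitochondrial mitophagy receptor induced by hypoxia, ranged from 6.63 to 7.10 under TUDCA (median 6.85) and from 6.22 to 6.67 under vehicle (median 6.47), with overlap only at the edge. Its difference was 0.34 ± 0.10 (SE, adjusted p = 0.0938 in limma). Bcl2a1a, a pro-survival gene of haematopoietic cells, was at −0.34 ± 0.15 (SE, adjusted p = 0.309). Its value is uncertain, because near-identical copies of the gene can share probes. Bcl2l14 was at 0.15 ± 0.09 (SE, adjusted p = 0.508).

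Of 26 genes that act on the family from upstream 23 were measured, and 3 fell and 0 rose, where 1.52% of all probe sets fell and 1% rose. The median log2 difference of the list was −0.04. This list and that of mitochondrial partners and effectors were chosen with earlier results of these data known, so their counts are descriptions. Stat3, a transcription factor that can activate Bcl2l1 and Mcl1, ranged from 9.90 to 10.08 under TUDCA (median 10.0045) and from 10.07 to 10.47 under vehicle (median 10.14). It was low in all TUDCA arrays, and the groups touched only between 10.07 and 10.08. Its difference was −0.26 ± 0.06 (SE, adjusted p = 0.0252 in limma).

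Pim1, a kinase gene induced by STAT signalling whose product can phosphorylate the BH3-only protein BAD, ranged from 8.17 to 8.82 under TUDCA (median 8.64) and from 8.52 to 9.18 under vehicle (median 8.85). Its difference was −0.41 ± 0.08 (SE, adjusted p = 0.0193 in limma). A second probe set of Pim1 was at −0.25 (adjusted p = 0.249). Gzmb, encoding granzyme B of cytotoxic lymphocytes, was at −1.55 ± 0.35 (SE, adjusted p = 0.0307), on the arrays whose T and NK cell markers are given above.

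Each of these calls ended on omission of at least 1 array and in a fit without the number range term. That of Pim1 stood on 11 of 12 omissions, that of Stat3 on 9 and that of Gzmb on 7. Without TUDCA replicate 2 none of the 3 passed, with a difference of −0.35 for Pim1 (adjusted p = 0.0914 in limma), −0.27 for Stat3 (adjusted p = 0.0748) and −1.05 for Gzmb (adjusted p = 0.0859). The difference of Stat3 was thus no smaller than over all arrays, and those of Pim1 and Gzmb were smaller. Without vehicle replicate 5 the call of Stat3 ended at −0.21 (adjusted p = 0.0637 in limma), and without vehicle replicate 6 at −0.28 (adjusted p = 0.0595). That of Gzmb ended without TUDCA replicate 1 or vehicle replicate 1, 3 or 5, with differences from −1.74 to −1.47 (adjusted p up to 0.0710 for these 4). In a fit that ignored the number range, Pim1 was at −0.27 (adjusted p = 0.328 in limma), Stat3 at −0.20 (adjusted p = 0.168) and Gzmb at −1.18 (adjusted p = 0.200).

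Within the ranges, Pim1 was at −0.41 on the low range alone and −0.41 on the high range alone, and passed in neither (adjusted p = 0.167 and 0.291 in limma). Stat3 was at −0.18 on the low and −0.35 on the high range and passed in neither (adjusted p = 0.338 and 0.281). Gzmb was at −2.18 on the low range, where it passed (adjusted p = 0.0423), and at −0.92 on the high range, where it did not (adjusted p = 0.385).

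Of 15 mitochondrial partners and effectors 13 were measured, and 1 rose, where 1% of all probe sets did, and 0 fell, where 1.52% did, with a median log2 difference of 0.09. Vdac1, encoding a channel of the outer mitochondrial membrane, ranged from 10.75 to 10.92 under TUDCA (median 10.90) and from 10.61 to 10.73 under vehicle (median 10.66). Every TUDCA array was above every vehicle array. Its difference was 0.21 ± 0.05 (SE, adjusted p = 0.0458 in limma), a fold of 1.16. The call stood at the edge of the threshold: it ended on leaving out any 1 of 11 arrays (adjusted p up to 0.160), the exception being TUDCA replicate 3 (adjusted p = 0.0212). Its difference stayed between 0.20 and 0.24 on every omission.

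Apaf1, the scaffold of the apoptosome, was at −0.22 ± 0.07 (SE, adjusted p = 0.112 in limma), and Xiap, a caspase inhibitor, at 0.23 ± 0.07 (SE, adjusted p = 0.116). Neither passed. Apaf1 passed on leaving out TUDCA replicate 3 (adjusted p = 0.0385).

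**Figure D4:**
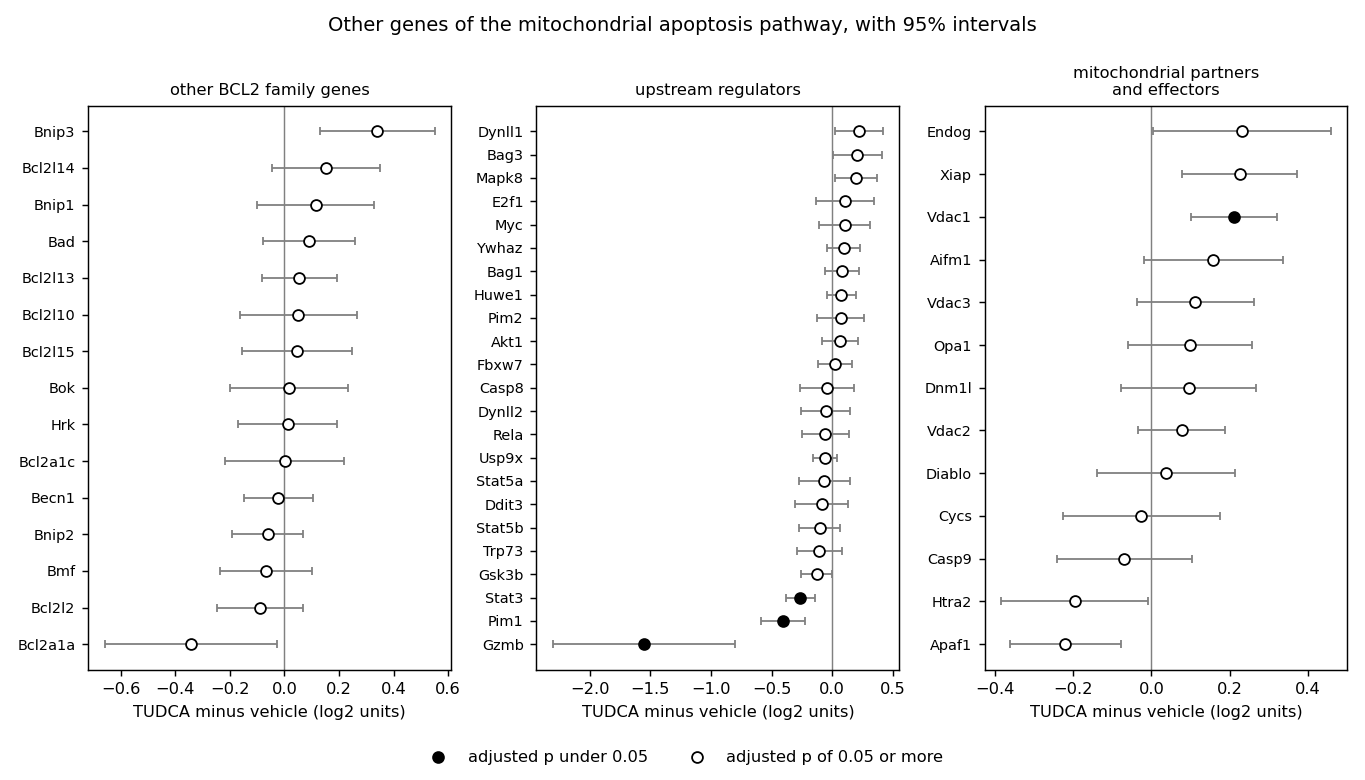
Log2 differences, TUDCA minus vehicle (x axis, a scale of its own in each panel), with 95% intervals for the measured genes of the 3 further lists. Filled points passed an adjusted p of 0.05: Stat3, Pim1 and Gzmb below 0 among upstream regulators, and Vdac1 above 0 among mitochondrial partners and effectors.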

How the data were processed

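The values deposited by the authors are on a log2 scale, 1 for each probe set on each array. The submitters' processing notes name oligo and RMA (which corrects background, quantile-normalises and summarises probes) but no versions. RMA equalises the arrays, so a change of all transcripts in 1 direction would be hidden. Levels of different genes were not compared, save in the tissue check and to mark dim probe sets. Probe sets were named by the platform annotation: 21557 of 23991 named 1 gene. The values hold no detection calls, and the number of arrays limits precision. No genome build is given, so no coordinates are printed.

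For TUDCA minus vehicle, limma 3.58.1 was run in R 4.3.3 (lmFit, eBayes with a trend) with treatment and number range as terms, two-sided, with Benjamini-Hochberg adjustment over all probe sets and a threshold of 0.05. The p-values treat arrays as separate mice, going by the sample numbers in the labels. The fit was tested on simulated data. Members and lists were chosen with earlier results of these data known. All members are named, and of each further list the genes past the threshold or the 3 with the smallest p. The probe set with the highest mean stands for a listed gene. Of the other marker lists, the T and NK cell, enterocyte and goblet lists aside, 1 neutrophil gene of 9 rose, where 1% of all probe sets did, while 0 of 7 epithelial, 0 of 7 crypt, 0 of 6 B and plasma cell, 0 of 7 macrophage and dendritic cell and 0 of 7 reticular cell genes passed. Alternatives were other covariates, ranges, filters, scalings and weights, and omission of each array.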

Additional observations from a re-analysis of the deposited data

Results flagged for a closer look

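Bbc3, Bak1 and Bcl2 drew attention because every TUDCA array of 1 number range lay above, and every TUDCA array of the other below, the vehicle mean of its own range. This was so for 3 of 8 members and for 9.4% of all probe sets. The log2 difference of Bbc3 was higher in the high than in the low range by 0.41, that of Bak1 lower (−0.47), and that of Bcl2 lower (−0.43). Tested as an interaction of treatment and range in limma, a test added after the data were seen, none of the 3 passed (adjusted p = 0.700 for Bbc3, 0.516 for Bak1 and 0.679 for Bcl2). The unadjusted p-values of that limma test were 0.108 for Bbc3, 0.00489 for Bak1 and 0.0840 for Bcl2. The high range holds 2 vehicle arrays, and vehicle replicate 5 among them had the lowest Bbc3 and the highest Bcl2 of all arrays. No single array of the 34 gene and group pairs tested stood apart from its group by Dixon's test. That test can miss 2 arrays that lie apart together, as TUDCA replicates 1 and 2 did for Pmaip1 (7.46 and 7.44).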

How the results depend on the processing

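Of 183 values of the 8 members under the alternatives, 168 kept their sign and their side of the threshold, 5 passed it and 10 changed sign. The 5 were all of Pmaip1: the low range alone (−0.75), array weights (−0.47), omission of TUDCA replicate 3 or vehicle replicate 5, and the unadjusted exact permutation. The count of members called was thus 1 in the low range alone, 1 with array weights, 1 at an adjusted p threshold of 0.1, and from 0 to 1 on omission of 1 array. Signs changed in the low range for Bbc3 (−0.11), Bak1 (0.16), Bcl2 (0.10) and Mcl1 (0.0044), and in the high range for Bcl2l1 (−0.033). Mcl1 also changed on renewed quantile normalisation (0.0012). On omission of single arrays the differences ran from −0.064 to 0.17 for Bbc3, from −0.18 to 0.0080 for Bak1 and from −0.063 to 0.011 for Mcl1, changing sign without vehicle replicate 5 (Bbc3 and Bak1) or 6 (Mcl1). The cause was not tested.

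Over all probe sets, 241 were higher and 364 lower. The counts were 6 and 3 in the high range alone, 436 higher with array weights, and on omission of 1 array from 91 to 292 higher and from 151 to 417 lower. Samples with the same replicate number had correlations of their deviations from −0.06 to 0.26. Samples with different numbers were not set beside them, so these values cannot decide whether the numbers pair the samples. The main fit took the samples as unpaired. With the replicate block and the number range the counts were 85 and 190, Mcl1 was at 0.037 and no member passed. The calls of Stat3 and Vdac1 ended under the block at differences of −0.26 and 0.23 (adjusted p = 0.175 and 0.185), no smaller than without it. That fit has fewer residual degrees of freedom, and why the calls ended was not tested. Without a variance trend those of Stat3 and Vdac1 ended too (adjusted p = 0.0591 and 0.110), with centred arrays that of Vdac1 (adjusted p = 0.0519) and with array weights that of Gzmb (adjusted p = 0.0524). With dim probe sets left out Bbc3 could not be tested. The values do not show how far a probe set stood above background.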
